A study of Mus musculus with 30 samples.

Results

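Infarcted mouse hearts were compared 7 and 4 days after ligation of a coronary artery. The comparison took the 10 of 30 libraries of the series whose titles name myocardial infarction (MI) and day 7 or day 4, 5 of each day. Titles alone set which libraries entered, but the comparison itself was chosen with earlier results of these data known. All 10 came from wild-type mice of the strain C57BL/6J, which were anaesthetised with isoflurane, had the chest opened and the pericardium taken away, and had the artery tied at day 0. The sham groups of the same days, also 5 libraries each, had every one of these steps except the tie, and stood beside the MI groups as the same interval without an infarct. The labels call the tissue murine heart and give no age, no sex, no measure of infarct size and no region of the heart, so that scar, border and uninjured muscle entered each library in shares that are not known. Nothing in the labels says that the 5 libraries of a group came from 5 animals, so that every p-value rests on the spread among samples, which may be technical. In such bulk RNA, fewer cells of a type and less RNA per cell cannot be told apart. Libraries of days 4 and 7 carry the same prefix in their labels. The question put to these libraries is which genes moved as the infarct passed from the first days of repair towards a scar.

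An infarct heals in overlapping phases. Neutrophils and monocytes enter first and clear dead muscle, macrophages then turn to repair, and resident fibroblasts divide, become myofibroblasts and lay down collagen. Later the fibroblasts stop dividing, cross-link and organise the matrix, and take up genes best known from tendon and cartilage. Collagen forms the fibrils, small leucine-rich proteoglycans set their spacing, lysyl oxidases join them, and elastic fibres of elastin on a fibrillin scaffold give recoil.

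The 5 libraries of day 4 held 9801282 to 11532784 counts and those of day 7 held 8797502 to 12119745, with 19664 to 20905 genes detected in each. Values are given as CPM, which set the counts of each gene against a common library size, and a count of 0 allows up to 0.248 to 0.341 CPM by library (3 counts, counting error only). Total counts, genes detected, the share of the 10 most counted genes and the level of Gm42418, a gene overlapping a ribosomal RNA repeat, did not pass an exact permutation test between days (2-sided, adjusted p from 0.413 to 0.857 over 4 tests, where the smallest p that 5 against 5 allows is 0.00794). A principal component analysis put the days apart: on its leading axis, which held 31.7% of the variance, day 4 lay between -33.4 and -8.20 and day 7 between 7.53 and 25.6. Heart muscle was present in all 10: the 20 contractile and calcium handling genes summed to 60795 to 82231 CPM.

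Libraries of day 7 stood apart by transcripts of other tissues. The 13 lung genes summed to 7.37 to 9.999 CPM at day 4, and at day 7 to 9.09, 2409, 51.5, 32.5 and 50.7 CPM in replicates 1 to 5. Replicate 2 held 881 CPM of Sftpc, a surfactant protein, and 761 CPM of Scgb1a1, a secretory protein of the airway. The 13 fast skeletal muscle genes summed to 65.6 to 90.8 CPM at day 4 and to 2527 CPM in day 7 replicate 4, against 78.5 to 103 CPM in the other day 7 libraries. The same replicate 4 had the highest sums of B and plasma cell genes (1662 CPM, against 107 to 302 in the others of day 7 and 25.4 to 106 at day 4), of adipocyte genes (523 CPM) and of mesothelial genes (196 CPM). Day 4 replicate 2 had the lowest sum of atrial genes, 269.6 CPM against 1144 to 1507 in the other day 4 libraries and 1362 to 2092 at day 7. Day 7 replicate 1 stood apart too, with Gm42418 at 9460 CPM against 3475 to 5310 in the other 9 libraries and an erythroid and platelet sum of 5764 CPM against 1188 to 3806. Results are given with day 7 replicates 2 and 4, beside counts without them. Of the 130 named genes called, 48 lost the call in at least 1 of the 10 omissions of a single library. The part of these tissues in the results was not tested beyond these omissions.

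**Figure D1:**
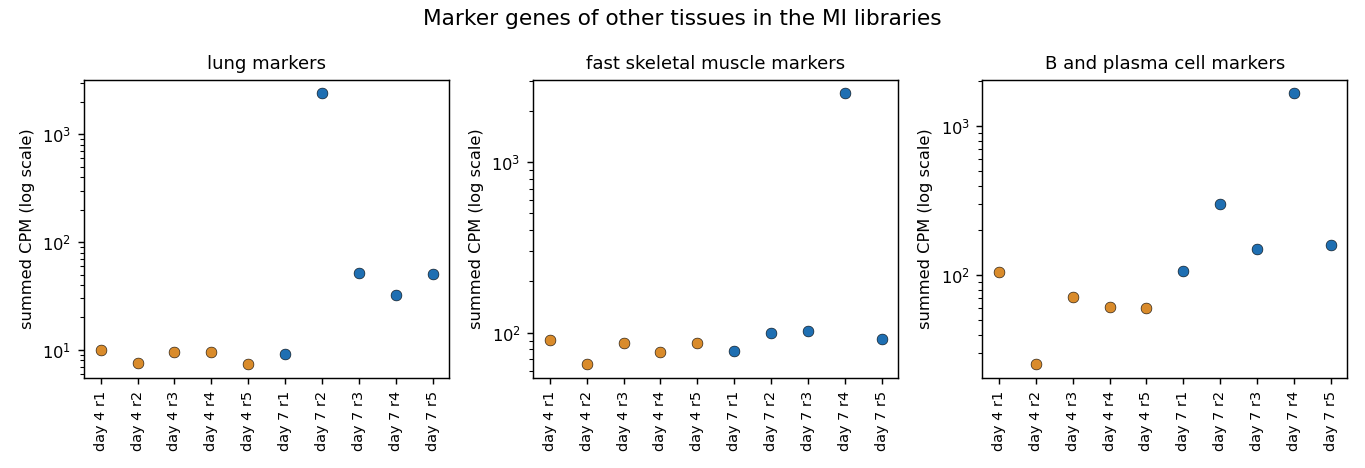
Summed CPM (log axis) of 3 gene lists in each MI library, with days 4 and 7 side by side and 1 point per library. The lung sum reached 2409 CPM in day 7 replicate 2, and the fast skeletal muscle and B and plasma cell sums reached 2527 and 1662 CPM in day 7 replicate 4, against at most 9.999, 90.8 and 106 CPM at day 4.

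Of 14788 genes tested, 869 (5.88%) were called at a Benjamini-Hochberg adjusted p under 0.05 in edgeR's quasi-likelihood test: 510 (3.45%) were higher at day 7 and 359 (2.43%) lower. The median log2 fold change over all genes tested was 0.00. The shares of 3.45% higher and 2.43% lower are what each count of a gene list below is set against. The gene lists were chosen with earlier results of these data known, so that their counts beside these shares are a description. Changes of at least 2-fold were 155 upward and 25 downward. All day 7 values lay on one side of all day 4 values in 673 of the called genes (77.4%) and in 7.76% of all genes tested. When day 7 replicates 2 and 4 were left out, 303 of 15037 genes (2.02%) were called, 211 higher (1.4%) and 92 lower (0.612%), and 268 of the 869 were still called. All 869 kept their direction there. Leaving out any 1 library gave 244 to 553 higher and 132 to 368 lower, with the fewest in both directions without day 4 replicate 1. The counts also moved by over 1.5 times without day 4 replicate 2 (245 and 158), day 4 replicate 3 (325 and 196), day 4 replicate 4 (287 and 181), day 7 replicate 2 (289 and 150), day 7 replicate 1 (413 and 215) and day 7 replicate 4 (350 and 219).

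**Figure D2:**
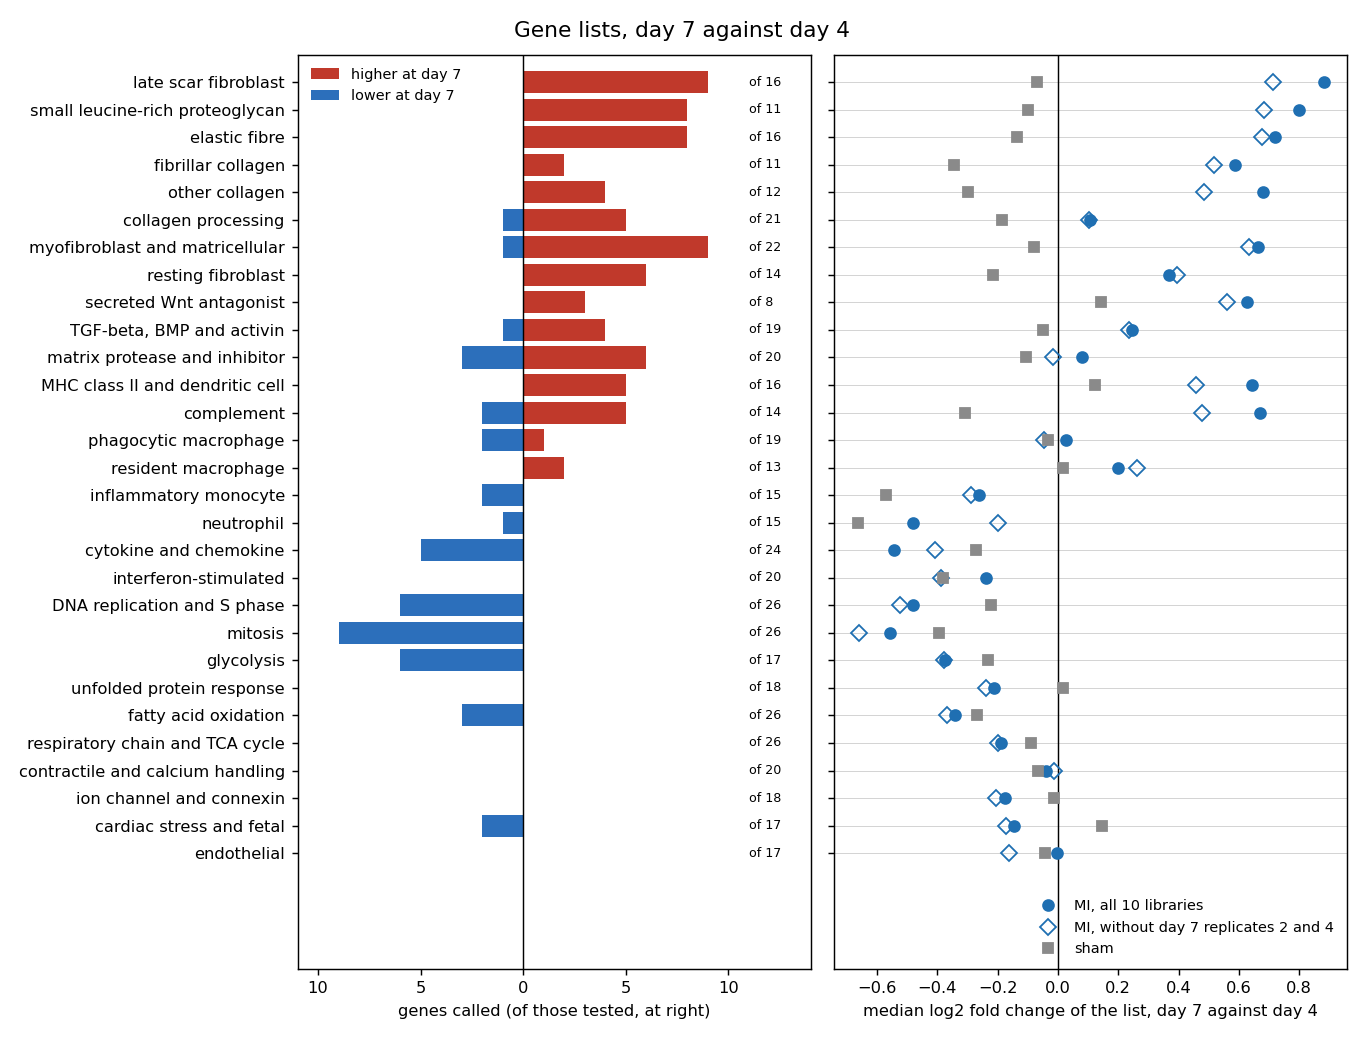
Genes called higher (red, right) or lower (blue, left) at day 7 in each gene list, with the number tested at the right edge, and the median log2 fold change of each list in all MI libraries (filled circles), without day 7 replicates 2 and 4 (diamonds) and in sham libraries (squares). The late scar fibroblast list (9 of 16 higher) had the highest MI median of the lists drawn, 0.88, and the mitosis list (9 of 26 lower) the lowest, -0.56.

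Genes of late scar fibroblasts, named for the matrix of tendon and cartilage that they make, were among the largest increases. Of 16 genes tested, 9 rose and none fell, with a median log2 fold change of 0.88 (-0.07 in sham hearts). Comp, the cartilage oligomeric matrix protein that bridges collagen fibrils (chr8:70373558-70382066, GRCm38), read 31.9, 12.6, 39.8, 30.2 and 41.5 CPM in day 4 replicates 1 to 5 and 105, 144, 123, 127 and 152 CPM in day 7 replicates 1 to 5. Every day 7 library lay above every day 4 library, and the rise was 4.17-fold (log2 2.06 ± 0.24 SE, adjusted p = 6.07e-04). Sfrp2, a secreted Wnt antagonist of fibroblasts, went from 40.6 ± 10.2 to 203 ± 48.01 CPM (mean and SD, n = 5; log2 2.32 ± 0.20, adjusted p = 6.13e-05). Cilp, the cartilage intermediate layer protein, which binds TGF-beta, read 97.7 ± 24.4 CPM at day 4 and 196 ± 36.9 CPM at day 7 (log2 1.005 ± 0.16, adjusted p = 0.00307). The gene listed as 1500015O10Rik, also known as Ecrg4, rose from 5.20 to 28.4 CPM (log2 2.44 ± 0.21, adjusted p = 5.01e-05). Angptl7, Thbs3, the tendon transcription factor Scx and the BMP antagonist Chrdl1 were also called, at log2 1.40, 0.95, 0.81 and 1.04, and the ninth was Fmod, a proteoglycan that is also in the list of its own family. In the lists with a call in 1 direction only, the other direction had at most 3 genes at an unadjusted p under 0.05, 0 called by DESeq2 and at most 1 by limma. The late scar list lost 3 calls without day 7 replicates 2 and 4, where 6 were called with a median of 0.71. Leaving out any 1 library left 8 or 9. The call of Chrdl1 ended without day 4 replicates 1, 2, 3, 4 or 5 or day 7 replicates 1, 2, 4 or 5 (adjusted p up to 0.117). Without day 7 replicates 2 and 4 together, Chrdl1, Thbs3 and Scx were no longer called (adjusted p = 0.177, 0.0525 and 0.0804).

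Some cartilage matrix genes outside that list were also higher at day 7, from low levels. Matn4, a matrilin that links matrix networks (chr2:164389393-164405160), read 0.816, 0.752, 1.51, 0.588 and 1.99 CPM at day 4 and 13.6, 25.7, 17.8, 20.9 and 17.8 CPM at day 7. The groups were far from overlapping, at 16.5-fold (log2 4.05 ± 0.27, adjusted p = 1.14e-05), and this was the largest rise among genes of at least 10 CPM whose groups did not overlap. Col2a1, the main collagen of cartilage, read 0.816, 0.0940, 0.377, 0.882 and 0.347 CPM at day 4 and 3.18, 4.88, 6.60, 7.23 and 1.29 CPM at day 7 (log2 3.21 ± 0.51, adjusted p = 0.00318). Acan, the large proteoglycan aggrecan, went from 1.32 ± 0.898 to 9.88 ± 4.57 CPM and Matn3, another matrilin, from 0.300 ± 0.145 to 1.81 ± 0.250 CPM (log2 2.89 ± 0.42 and 2.53 ± 0.34, adjusted p = 0.00243 and 0.00135). Col2a1 and Matn3 lay under 1 CPM in every day 4 library and passed the filter on low counts through day 7, so that their values are a description. Matn4, at 0.588 to 1.99 CPM at day 4, and Acan, at 1.32 ± 0.898 CPM at day 4, also passed that filter through day 7. The values of both are a description too. The bone and cartilage list, which holds Acan and Matn3, was mixed. Of its 12 genes 6 passed the filter, 2 rose (Acan and Matn3, a description as said above) and 1 fell. The log2 fold changes of 3 were positive and of 3 negative (median 0.22). In that list Alpl, the alkaline phosphatase of mineralising bone, fell (log2 -0.64 ± 0.15, adjusted p = 0.0246; 0.115 without day 7 replicates 2 and 4), and its call also ended without day 4 replicates 1 or 3 or day 7 replicates 2 or 4. C1qtnf3, a secreted protein of fibroblasts and cartilage, read 3.88, 2.26, 2.35, 2.55 and 3.56 CPM at day 4 and 25.3, 63.3, 23.2, 71.3 and 50.1 CPM at day 7 (log2 3.99 ± 0.34, adjusted p = 6.46e-05). Its sham mean also differed between days, 0.464 ± 0.370 CPM at day 4 and 1.36 ± 0.808 CPM at day 7, without passing the test there (adjusted p = 0.296).

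**Figure D3:**
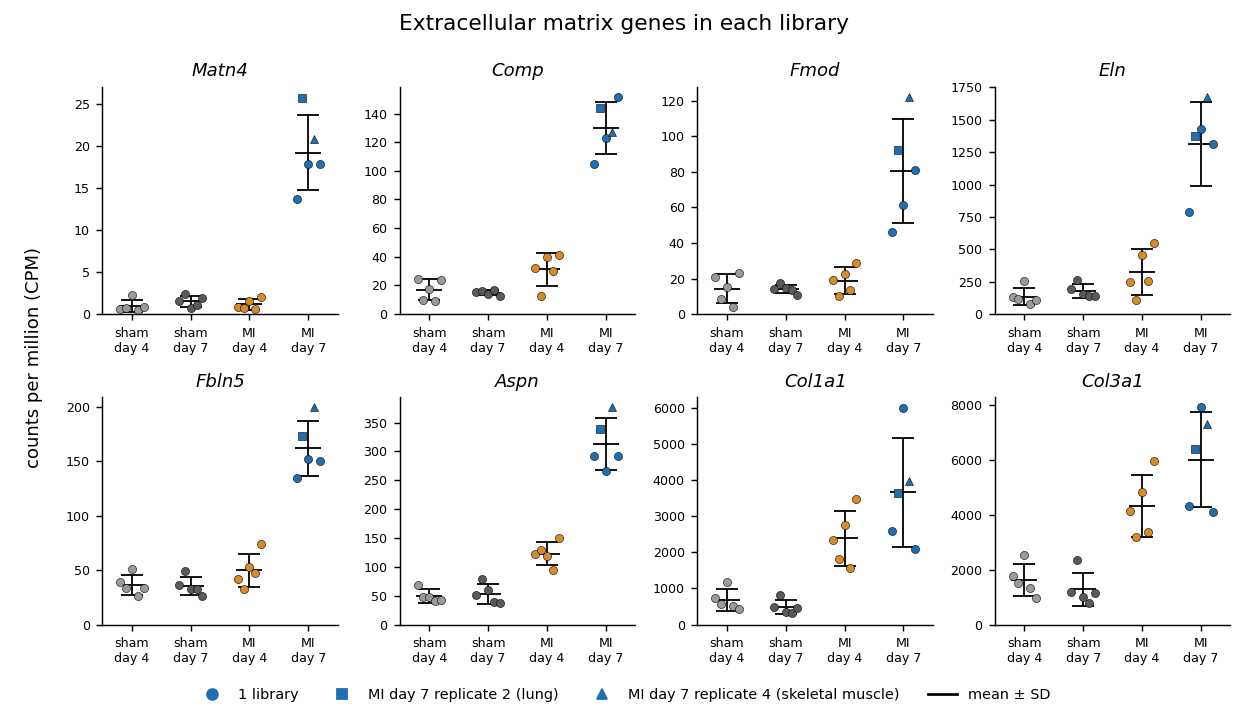
CPM (linear axes from 0) of 8 matrix genes in each library of sham and MI hearts at days 4 and 7; points are libraries and bars are group means with SD, n = 5. For Matn4, Comp, Fmod, Eln, Fbln5 and Aspn every MI library of day 7 lay above every MI library of day 4, whereas Col1a1 and Col3a1, with means of 2392 and 4298 CPM at day 4, did not pass the test.

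Small leucine-rich proteoglycans, which coat collagen fibrils and set their width, mostly rose. Of 11 tested, 8 were higher and none lower, and all 11 had a positive log2 fold change (median 0.80, sham -0.10). Fmod, fibromodulin, read 18.98, 9.87, 22.7, 13.7 and 28.9 CPM at day 4 and 46.1, 92.4, 61.6, 122 and 80.9 CPM at day 7, with no overlap (log2 2.10 ± 0.29, adjusted p = 0.00249). Aspn, asporin, which binds TGF-beta, read 122, 129.8, 118, 94.9 and 150.4 CPM at day 4 and 291, 339, 265, 377 and 292 CPM at day 7 (log2 1.34 ± 0.13, adjusted p = 1.08e-04). The groups were again separate, with the lowest day 4 value in replicate 4. Lum, lumican, went from 179.5 ± 34.3 to 333 ± 54.5 CPM and Ogn, osteoglycin, from 146 ± 20.9 to 267 ± 47.5 CPM (log2 0.89 ± 0.14 and 0.86 ± 0.13, adjusted p = 0.00299 and 0.00276). The abundant Dcn, decorin (575 ± 108 and 913 ± 141 CPM), and Bgn, biglycan (1083 ± 228 and 1691 ± 181 CPM), rose less (log2 0.67 ± 0.14 and 0.64 ± 0.14, adjusted p = 0.0187 and 0.0202). Prelp and Ecm2 were the other members called. Calls ended without day 4 replicates 1 or 2 for Dcn, day 4 replicates 1, 2, 3 or 4 or day 7 replicate 2 for Bgn, day 4 replicates 1, 2 or 4 or day 7 replicate 2 for Prelp and day 4 replicates 1, 2 or 4 or day 7 replicates 2, 4 or 5 for Ecm2. The adjusted p rose to 0.0590, 0.0615, 0.0672 and 0.0849. The count was 4 without day 4 replicate 1 or 2, 5 without day 4 replicate 4 or day 7 replicate 2, and 4 without day 7 replicates 2 and 4 together, where Dcn (adjusted p = 0.101), Bgn (0.112), Prelp (0.113) and Ecm2 (0.156) were no longer called.

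Several elastic fibre genes rose. Of 16 tested, 8 were higher and none lower (median log2 0.72, sham -0.14), and 5 were called without day 7 replicates 2 and 4. Eln, tropoelastin, read 247, 110.1, 452, 255 and 549 CPM at day 4 and 790.00, 1373, 1431, 1674 and 1311 CPM at day 7. All 5 day 7 values lay above all 5 of day 4, at 4.09-fold (log2 2.03 ± 0.35, adjusted p = 0.00652). Fbln5, fibulin 5, which guides elastin onto the fibre, read 41.9, 32.5, 53.1, 47.3 and 73.9 CPM at day 4 and 135, 174, 152, 200.2 and 150.2 CPM at day 7 (log2 1.71 ± 0.17, adjusted p = 1.82e-04). The microfibril proteins Mfap4 and Mfap2 rose from 119 ± 24.04 to 339.9 ± 61.2 CPM and from 14.1 ± 3.51 to 30.6 ± 6.31 CPM (log2 1.52 ± 0.16 and 1.12 ± 0.17, adjusted p = 1.82e-04 and 0.00310). Mapk7 overlaps Mfap4 on the genome, with a mean of 18.8 CPM or 8.19% of its level. Ltbp2, a latent TGF-beta binding protein of the same fibres, also rose (log2 1.12 ± 0.23, adjusted p = 0.0161), with an adjusted p of 0.0673 without day 7 replicates 2 and 4.

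The main scar collagens were already high at day 4 and did not pass the test. Col1a1 (chr11:94936224-94953042) read 2331, 1811, 2766, 1579 and 3474 CPM at day 4 and 2579, 3645, 6009, 3989 and 2093 CPM at day 7, and the groups overlapped (log2 0.62 ± 0.27, adjusted p = 0.190). Col3a1 read 4124, 3201, 4822, 3382 and 5959 CPM at day 4 and 4318, 6382, 7905, 7300.2 and 4083 CPM at day 7 (log2 0.48 ± 0.22, adjusted p = 0.200), with the lowest day 4 values in replicates 2 and 4 for both genes. Of 11 fibrillar collagens, 10 had a positive log2 fold change and 2 were called, Col2a1 and Col11a1, a minor collagen that seeds fibrils (log2 2.70 ± 0.55, adjusted p = 0.0238). The values of Col2a1 are a description, as said above. Col11a1 was not called without day 4 replicates 1, 2, 3 or 4. Of 12 other collagens, 4 rose. Col8a2, a short-chain collagen of basement membranes and vessel walls, went from 13.04 ± 4.45 to 70.2 ± 19.96 CPM without overlap (log2 2.42 ± 0.23, adjusted p = 1.24e-04), and its partner chain Col8a1 from 271 ± 92.2 to 542 ± 113 CPM (log2 1.002 ± 0.20, adjusted p = 0.0140). The fibril-associated Col14a1 and Col16a1 rose by log2 0.96 and 0.93. Col14a1 lost its call without day 4 replicates 1, 2 or 4 or day 7 replicates 2, 3 or 4 (adjusted p up to 0.0722). Col16a1 lost its call without day 4 replicates 1, 2, 3 or 4 or day 7 replicates 2, 3 or 4 (adjusted p up to 0.102). Only Col8a2 was called without day 7 replicates 2 and 4, and 2 of the 12 without day 4 replicate 1, 2 or 4 or day 7 replicate 2, 3 or 4.

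Some enzymes that process and cross-link collagen changed. Of 21 tested, 5 rose and 1 fell, against 3.45 and 2.43% of all genes tested, with a median log2 fold change of 0.11. Adamts2, which trims procollagen, rose by log2 0.75 (adjusted p = 0.0187), the lysyl oxidases Loxl1 and Lox by 0.56 and 0.83 (adjusted p = 0.0285 and 0.0487), and the hydroxylases P3h3 and Plod2 by 0.53 and 0.51. P4ha1, the prolyl hydroxylase subunit, fell (log2 -0.36 ± 0.09, adjusted p = 0.0313). Lox read 343, 266, 341, 336 and 468 CPM at day 4 and 627, 588, 929.97, 647 and 314 CPM at day 7, and its call ended without any of 8 single libraries (day 4 replicates 1, 2, 3 or 4 or day 7 replicates 1, 2, 3 or 4). That of P4ha1 ended without day 4 replicates 1, 2 or 3 or day 7 replicates 1, 2 or 5 (adjusted p up to 0.0833). Loxl1 lost its call without day 4 replicates 1, 2, 3 or 4 or day 7 replicates 2 or 4 (adjusted p up to 0.0792) and P3h3 without day 4 replicates 1, 2, 3 or 4 or day 7 replicates 2, 3 or 4 (adjusted p up to 0.0792). Plod2 lost its call without day 4 replicates 1, 2 or 4 or day 7 replicates 2 or 4 (adjusted p up to 0.0950) and Adamts2 without day 4 replicates 1 or 4 (adjusted p up to 0.0518). None of the 6 was called without day 7 replicates 2 and 4. Leaving out day 4 replicate 1 also ended all 6 calls. The higher calls numbered 0 without day 4 replicate 4, 1 without day 4 replicate 2, day 7 replicate 2 or day 7 replicate 4, 2 without day 4 replicate 3 and 3 without day 7 replicate 3.

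Myofibroblast and matricellular genes, which act between cells and matrix, split within the list. Of 22, 9 rose and 1 fell, with 6 and 0 without day 7 replicates 2 and 4. Thbs2, a thrombospondin of collagen fibrils, read 71.5, 68.2, 86.2, 48.04 and 106 CPM at day 4 and 182, 275, 294, 262 and 149 CPM at day 7 (log2 1.61 ± 0.22, adjusted p = 0.00140). Ccn5, a matricellular protein that opposes its relative Ccn2 in fibrosis, rose from 62.3 ± 21.3 to 199 ± 25.7 CPM (log2 1.68 ± 0.23, adjusted p = 0.00176). Cthrc1, a secreted marker of activated fibroblasts, went from 86.2 ± 8.27 to 184 ± 50.9 CPM (log2 1.09 ± 0.16, adjusted p = 0.00247) and Sparc, a collagen chaperone of the matrix, from 2299 ± 278 to 3969 ± 423 CPM (log2 0.79 ± 0.13, adjusted p = 0.00399). Postn, periostin, read 1014, 1009, 946, 770.1 and 1463 CPM at day 4 and 1803, 2149.6, 1984, 2447 and 1401 CPM at day 7 (log2 0.91 ± 0.18, adjusted p = 0.0112; 0.0822 without day 7 replicates 2 and 4). Acta2, the smooth muscle actin of myofibroblasts, read 349 ± 53.1 CPM at day 4 and 379 ± 66.1 CPM at day 7 (log2 0.12 ± 0.14, adjusted p = 0.629). Tnc, tenascin C of early wounds, read 193 ± 57.2 and 108 ± 47.7 CPM (log2 -0.83 ± 0.31, adjusted p = 0.126). Timp1, an inhibitor of matrix metalloproteinases, fell from 176 ± 26.7 to 99.2 ± 26.5 CPM (log2 -0.82 ± 0.17, adjusted p = 0.0161; 0.0931 without day 7 replicates 2 and 4).

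Signals that act on fibroblasts changed in part. Tgfb3, a TGF-beta isoform, rose from 104 ± 17.4 to 235 ± 31.2 CPM (log2 1.17 ± 0.12, adjusted p = 2.05e-04); Ttll5 overlaps it at 13.3% of its level. Fst, follistatin, which traps activins, rose (log2 1.33 ± 0.26, adjusted p = 0.0106), and so did Fstl1 and Bmp4 (log2 0.75 ± 0.15 and 0.49 ± 0.12) within a list of 19 in which 4 rose and Bmp2 alone fell (log2 -1.03 ± 0.21, adjusted p = 0.0155; 2 fell without day 7 replicate 3). Bmp4 lost its call without day 4 replicates 1, 2, 3, 4 or 5 or day 7 replicates 1, 2, 4 or 5 (adjusted p up to 0.101). When day 7 replicates 2 and 4 were left out, 2 of these were higher and none lower. Of 8 secreted Wnt antagonists 3 rose, Sfrp2, Frzb and Sfrp1. Frzb read 34.1 ± 7.64 CPM at day 4 and 67.4 ± 6.999 CPM at day 7 (log2 0.98 ± 0.13, adjusted p = 0.00130) and Sfrp1 141 ± 38.95 and 344 ± 67.1 CPM (log2 1.29 ± 0.19, adjusted p = 0.00249). These 3 were called in every omission of 1 library and without day 7 replicates 2 and 4. Genes of resting fibroblasts also rose, 6 of 14 with none lower and 2 without day 7 replicates 2 and 4. Tcf21, the transcription factor of quiescent cardiac fibroblasts, went from 19.5 ± 2.63 to 33.3 ± 4.01 CPM (log2 0.77 ± 0.12, adjusted p = 0.00276), and Dpt, dermatopontin, from 247 ± 34.5 to 421 ± 75.5 CPM (log2 0.77 ± 0.14, adjusted p = 0.00876).

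Matrix proteases and their inhibitors moved both ways, 6 of 20 higher and 3 lower, and 4 and 1 without day 7 replicates 2 and 4. Mmp2, the gelatinase of fibroblasts, read 115, 83.5, 142, 116 and 177 CPM at day 4 and 191, 327, 316, 370.2 and 250.2 CPM at day 7, with no overlap (log2 1.20 ± 0.19, adjusted p = 0.00378). Mmp23 rose from 31.9 ± 4.48 to 61.5 ± 9.60 CPM and the inhibitor Timp3 from 172 ± 37.2 to 319 ± 40.5 CPM (log2 0.95 ± 0.12 and 0.90 ± 0.14, adjusted p = 0.00117 and 0.00330). Mmp8, the collagenase of neutrophils, read 5.31, 3.48, 3.01, 6.27 and 3.29 CPM at day 4 and 1.36, 1.04, 1.73, 0.589 and 0.108 CPM at day 7 (log2 -2.11 ± 0.42, adjusted p = 0.0121; 0.0720 without day 7 replicates 2 and 4), and the other genes that fell were Timp1, above, and Adamts4, an aggrecanase (log2 -0.45 ± 0.10; adjusted p = 0.0563 without day 4 replicate 1). Fxyd6, an ion pump modulator, Itgbl1, a secreted integrin-like protein, and Itm2a, a membrane protein of differentiating cartilage and muscle, rose without overlap by log2 1.34 ± 0.10, 1.82 ± 0.15 and 1.71 ± 0.15 (adjusted p = 2.15e-05, 4.08e-05 and 6.46e-05).

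Chemokines that draw monocytes and neutrophils fell. Of 24 cytokines and chemokines tested, 5 fell and none rose (1 rose without day 7 replicate 3 or 5), and 4 were lower without day 7 replicates 2 and 4. Ccl2, the main monocyte chemoattractant (chr11:82035571-82037453), read 69.3, 45.1, 38.9, 76.4 and 44.7 CPM at day 4 and 25.5, 15.4, 13.8, 17.2 and 7.87 CPM at day 7. Each day 7 library lay below each day 4 library (log2 -1.78 ± 0.27, adjusted p = 0.00307). Its neighbour in function Ccl7 read 80.8, 40.99, 45.2, 70.8 and 33.9 CPM at day 4 and 28.6, 13.9, 15.02, 9.84 and 9.92 CPM at day 7 (log2 -1.82 ± 0.33, adjusted p = 0.00933). The neutrophil chemokines Cxcl1 and Cxcl5 went from 6.96 ± 1.61 to 2.75 ± 0.861 CPM and from 16.1 ± 5.26 to 5.69 ± 1.79 CPM (log2 -1.34 ± 0.23 and -1.50 ± 0.25, adjusted p = 0.00600 and 0.00478). Cxcl10, an interferon-induced chemokine, fell by 0.96 on the log2 scale (adjusted p = 0.0387; 0.101 without day 7 replicates 2 and 4; and up to 0.0956 without day 4 replicates 1, 2, 3 or 5 or day 7 replicates 1, 2, 3 or 4). It lies within Art3, whose mean was 193.5 CPM, so that its reads may be shared. Il1b, the inflammasome cytokine, read 26.7, 3.67, 11.8, 30.6 and 10.2 CPM at day 4 and 37.6, 9.85, 19.6, 2.86 and 4.10 CPM at day 7 (log2 -0.15 ± 0.76, adjusted p = 0.925). Of 20 interferon-stimulated genes edgeR called 0 (3 at an unadjusted p under 0.05, 1 by DESeq2, 1 by limma and 1 by edgeR without day 4 replicate 4).

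Macrophage and neutrophil genes showed few changes against a wide spread between libraries. Over all genes tested 3.45% rose and 2.43% fell, so that a single call in one of these lists describes a gene and not the list. Ccr2, the receptor of Ccl2, fell from 87.3 ± 14.4 to 58.3 ± 12.9 CPM (log2 -0.58 ± 0.15, adjusted p = 0.0410; 0.117 without day 7 replicates 2 and 4, and lost in 8 of the 10 single omissions). Fcgr1, a high-affinity antibody receptor, fell by 0.67 on the log2 scale (adjusted p = 0.00839), and these 2 were the only called genes of 15 of inflammatory monocytes. The adjusted p of Fcgr1 was 0.0524 when day 7 replicates 2 and 4 were left out. Arg1, arginase of repair macrophages, read 174, 85.8, 86.4, 271 and 124 CPM at day 4 and 82.9, 42.2, 74.9, 35.3 and 27.8 CPM at day 7 (log2 -1.48 ± 0.40, adjusted p = 0.0583). Chil3 read 39.3, 21.2, 32.1, 86.6 and 37.2 CPM at day 4 and 9.89, 227, 37.3, 5.04 and 1.73 CPM at day 7, with adjusted p = 0.877. Day 4 replicate 4 and day 7 replicate 2, the library with the highest lung sum, stood far above the others. Spp1, osteopontin of phagocytic macrophages, read 702, 619.5, 488, 726 and 689 CPM at day 4 and 291, 162, 400.1, 207 and 58.99 CPM at day 7 (log2 -1.52 ± 0.38, adjusted p = 0.0390). The groups did not overlap, but the call ended without day 4 replicates 1, 2, 3, 4 or 5 or day 7 replicates 1, 2 or 4 and without day 7 replicates 2 and 4 together (0.126). Plin2, a lipid droplet protein, fell and Ctsk, a collagen-degrading cathepsin, rose (log2 -0.78 ± 0.12 and 0.80 ± 0.13, adjusted p = 0.00249 and 0.00314) among 19 phagocytic macrophage genes, of which 4 were higher without day 7 replicate 5, and 2 higher and 3 lower without day 7 replicate 3. Gpnmb, Trem2 and Lyve1 had log2 fold changes of 0.19, 0.24 and 0.23 (adjusted p = 0.835, 0.586 and 0.466). Of 13 resident macrophage genes the growth factor Igf1 and the bridging ligand Gas6 rose (log2 0.77 ± 0.16 and 0.53 ± 0.12; adjusted p = 0.0830 and 0.0634 without day 7 replicates 2 and 4). The call of Igf1 also ended without day 4 replicates 1 or 4 and that of Gas6 without day 4 replicates 1, 2 or 3. Cd68, a lysosomal protein of macrophages, fell from 116 ± 6.73 to 63.2 ± 19.6 CPM (log2 -0.87 ± 0.19, adjusted p = 0.0190; 0.0641 without day 7 replicates 2 and 4 and also lost without replicate 2 alone), the only call among 15 genes common to macrophages and leukocytes. Mmp8, above, passed the filter on low counts through day 4, so that its values are a description. Of 15 neutrophil genes it alone fell and none rose. The log2 fold changes of 12 were negative and of 3 positive, with a median of -0.48 (-0.20 without day 7 replicates 2 and 4, -0.66 in sham hearts). Among the positive ones, S100a8 read 28.3, 4.04, 10.8, 59.7 and 8.84 CPM at day 4 and 83.1, 10.6, 48.02, 4.46 and 2.26 CPM at day 7, and its partner S100a9 45.9, 7.52, 16.6, 76.2 and 14.3 CPM and 118, 13.7, 39.8, 3.19 and 3.99 CPM. Both spread over more than 10-fold within a day and did not pass the test (log2 0.43 ± 1.06 and 0.17 ± 1.05, adjusted p = 0.843 and 0.942). The sum of the pan-leukocyte genes lay between 2523 and 3125 CPM at day 4, and at day 7 between 1893 and 3688 CPM.

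Antigen presentation and complement genes rose in part. Of 16 MHC class II and dendritic cell genes 5 rose, the class II chains H2-Aa, H2-Ab1 and H2-Eb1, the invariant chain Cd74 and Cd83, a marker of mature dendritic cells. H2-Aa read 62.7, 58.1, 75.02, 46.5 and 73.1 CPM at day 4 and 101, 135, 90.3, 174 and 123 CPM at day 7 (log2 0.98 ± 0.17, adjusted p = 0.00571). The days did not overlap, and the highest values were in day 7 replicates 4 and 2. B cells also carry class II, and the B and plasma cell sum lay between 25.4 and 106 CPM at day 4 and between 107 and 1662 CPM at day 7, highest in replicate 4. Ms4a1, the B cell protein CD20, read 1.33, 0.846, 1.60, 0.294 and 1.30 CPM at day 4 and 2.61, 5.70, 3.63, 17.99 and 1.94 CPM at day 7 and was among the 2 of 9 B cell genes that rose (adjusted p = 0.0314; 0.105 without day 7 replicates 2 and 4). Ms4a1 was also lost without day 4 replicates 1, 2, 3, 4 or 5 or day 7 replicate 2, while 4 B cell genes were called without day 7 replicate 5. Some day 4 libraries held Ms4a1 under 1 CPM, and it passed the filter on low counts through day 7, so that its values are a description. Of the class II genes, 1 was called without day 7 replicates 2 and 4, H2-Aa (log2 0.74, adjusted p = 0.0374). Single omissions that ended a call were day 4 replicates 1, 2, 3, 4 or 5 or day 7 replicates 2, 4 or 5 for H2-Ab1, day 4 replicates 1, 2 or 4 or day 7 replicates 2 or 4 for Cd74 and day 4 replicates 1 or 4 or day 7 replicate 2 for Cd83. Their adjusted p rose to 0.0940, 0.0672 and 0.0627. The class II count was 2 without day 4 replicate 1 or 4 or day 7 replicate 2, and 3 without day 4 replicate 2 or day 7 replicate 4. The part of B cells in these changes was not tested further. Of 21 T and NK cell genes 7 passed the filter and edgeR called 0 of them (1 at an unadjusted p under 0.05, 0 by DESeq2 and limma), and Cd3e was too low to test.

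Of 14 complement genes 5 rose and 2 fell. Serping1, the C1 inhibitor, read 125, 97.9, 162, 135 and 158 CPM at day 4 and 208, 242, 226, 277 and 204 CPM at day 7, without overlap (log2 0.77 ± 0.13, adjusted p = 0.00516). Cd55, which removes complement from cell surfaces, and C1ra and C1s1, the proteases that start the classical pathway, rose by log2 0.81, 0.73 and 0.89. Cfp, properdin, which stabilises the alternative pathway, and C5ar1, the receptor of the fragment C5a on phagocytes, fell by 0.99 and 0.72 on the log2 scale (adjusted p = 0.00873 and 0.0324). Only Serping1 was called without day 7 replicates 2 and 4 (adjusted p = 0.0457). C1ra lost its call without day 4 replicates 1 or 2 (adjusted p up to 0.0553). C1s1 lost its call without day 4 replicates 1, 2 or 4 or day 7 replicates 2 or 4 (adjusted p up to 0.0849) and C5ar1 without day 4 replicates 1, 3, 4 or 5 or day 7 replicates 2, 4 or 5 (adjusted p up to 0.0849). The higher calls were 2 without day 4 replicate 1 or 2, and 3 without day 4 replicate 4, day 7 replicate 2 or day 7 replicate 4; the lower calls were 1 without any one of day 4 replicates 1, 3, 4 or 5 or day 7 replicates 2, 4 or 5.

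Genes of cell division fell in part. Of 26 mitosis genes 9 were lower and none higher, all 26 had a negative log2 fold change, and the median was -0.56 (-0.39 in sham hearts). Of 26 DNA replication and S phase genes 6 were lower and none higher, with a median of -0.48 (-0.22 in sham). Without day 7 replicates 2 and 4 the counts were 10 and 5, the medians -0.66 and -0.52, and leaving out 1 library gave 6 to 11 and 4 to 8. The mitosis genes summed to between 550.3 and 886 CPM at day 4 and to between 382 and 544 CPM at day 7, without overlap. The promoters of 3 called genes of these lists, Ube2c, Top2a and Mcm6, are shown because sites for the factors that set the timing of the cycle are known from such promoters. Each is the 150 bases before the RefSeq start of transcription (GRCm38.p6), 5′ to 3′ on the strand of the gene, with capitals on 3 motifs on either strand: CCAAT, which NF-Y binds; the CHR element of genes silenced outside division, TTTGAA or TTCGAA; and the E2F element, TTTCCCGC, TTTGGCGC, TTTCGCGC or TTTGCCGC. They lie at chr2:164769779-164769928 (plus strand), chr11:99024190-99024339 (minus strand) and chr1:128359706-128359855 (minus strand).
Ube2c: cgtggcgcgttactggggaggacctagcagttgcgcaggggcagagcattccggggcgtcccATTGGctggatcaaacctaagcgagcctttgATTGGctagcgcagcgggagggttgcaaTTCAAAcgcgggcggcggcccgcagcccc
Top2a: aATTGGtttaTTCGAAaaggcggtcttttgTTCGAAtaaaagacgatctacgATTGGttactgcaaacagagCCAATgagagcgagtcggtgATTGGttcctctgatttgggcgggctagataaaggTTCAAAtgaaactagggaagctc
Mcm6: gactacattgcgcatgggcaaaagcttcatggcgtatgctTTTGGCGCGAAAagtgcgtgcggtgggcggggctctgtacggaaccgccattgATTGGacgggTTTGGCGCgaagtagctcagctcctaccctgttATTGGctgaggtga
In the Ube2c window the capitals are 2 CCAAT and 1 CHR, in Top2a 4 CCAAT and 3 CHR, and in Mcm6 3 E2F, of which 2 overlap on opposite strands, and 2 CCAAT. In the 250 bases before the start, CCAAT was in 18 of the 21 mitosis promoters found in the table (85.7%) and in 14 of 21 of DNA replication and S phase (66.7%), against 36.2% of the 10735 promoters of genes tested and 34.5% of all 27025. CHR was in 8 (38.1%) and 4 (19.0%), against 12.2% and 17.4%. E2F was in 1 (4.76%) and 5 (23.8%), against 3.31% and 1.91%. Motif matches overlapped between CHR and CCAAT in 35 promoters and between E2F and CCAAT in 3. Among the mitosis genes in the table, CCAAT was in 5 of the 5 called and 13 of the 16 not called, and CHR in 2 and 6. Among those of DNA replication and S phase, CCAAT was in 6 of the 6 called and 8 of the 15 not called, CHR in 1 and 3, and E2F in 2 and 3. Ube2c and Top2a are the 2 called mitosis genes with a CHR, and Mcm6 is 1 of the 2 called S phase genes with an E2F element. The windows printed are therefore not typical of the called genes in these 2 motifs. These matches are letters in a window and not measured binding.

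Mcm5, a subunit of the helicase that opens DNA for replication, read 35.5, 33.2, 32.9, 39.6 and 45.002 CPM at day 4 and 14.3, 20.4, 16.01, 27.997 and 16.3 CPM at day 7. The days did not overlap (log2 -0.97 ± 0.16, adjusted p = 0.00433). Mcm6, of the same helicase, went from 49.8 ± 8.36 to 31.5 ± 6.52 CPM (log2 -0.66 ± 0.14, adjusted p = 0.0161) and Uhrf1, which keeps DNA methylation through replication, from 21.04 ± 4.67 to 11.2 ± 1.76 CPM (log2 -0.91 ± 0.15, adjusted p = 0.00395). Ccna2, the cyclin of S phase and entry into mitosis, read 36.02, 32.2, 24.8, 38.8 and 45.6 CPM at day 4 and 17.8, 22.5, 13.04, 24.5 and 21.6 CPM at day 7 (log2 -0.84 ± 0.17, adjusted p = 0.0161); it overlaps Exosc9, with a mean of 24.7 CPM. The mitotic kinases Aurkb, Aurka and Plk1 fell by 0.91, 0.76 and 0.81 on the log2 scale (adjusted p = 0.0106, 0.00902 and 0.0306), and Foxm1, the transcription factor that drives mitotic genes, by 0.65 (adjusted p = 0.00652). Ube2c, which feeds the complex that ends mitosis, went from 20.3 ± 1.80 to 12.4 ± 2.87 CPM and Top2a, which untangles chromosomes, from 69.4 ± 18.9 to 42.8 ± 8.73 CPM (adjusted p = 0.0195 and 0.0285). Ube2c had an adjusted p of 0.0543 without day 4 replicate 1. The call of Top2a ended without day 4 replicate 2 or day 7 replicates 1, 2, 3 or 5, and that of Plk1 without day 4 replicates 1, 4 or 5 or day 7 replicates 1, 3 or 5. Of the other named members, Tpx2, a spindle protein, and Hmmr had log2 fold changes of -0.69 and -0.74, both called. Rrm2, which makes the building blocks of DNA, E2f8, a repressor of the cycle, and Chaf1a, a histone chaperone, were called at -0.66, -0.63 and -0.62. Hmmr lost its call without day 4 replicates 1 or 2 or day 7 replicate 2 (adjusted p up to 0.0542), Rrm2 without day 4 replicates 1, 2, 4 or 5 or day 7 replicates 1, 2 or 3 (adjusted p up to 0.0832) and E2f8 without day 4 replicates 1, 2, 4 or 5 or day 7 replicates 1, 2, 3, 4 or 5 (adjusted p up to 0.107). Mki67, the proliferation marker, read 77.3, 69.2, 76.6, 50.5 and 122 CPM at day 4 and 42.6, 64.8, 55.9, 73.7 and 52.2 CPM at day 7 (log2 -0.45 ± 0.19, adjusted p = 0.178), and Ccnb1 had log2 -0.62 ± 0.20 (adjusted p = 0.0829). Neither passed the test.

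**Figure D4:**
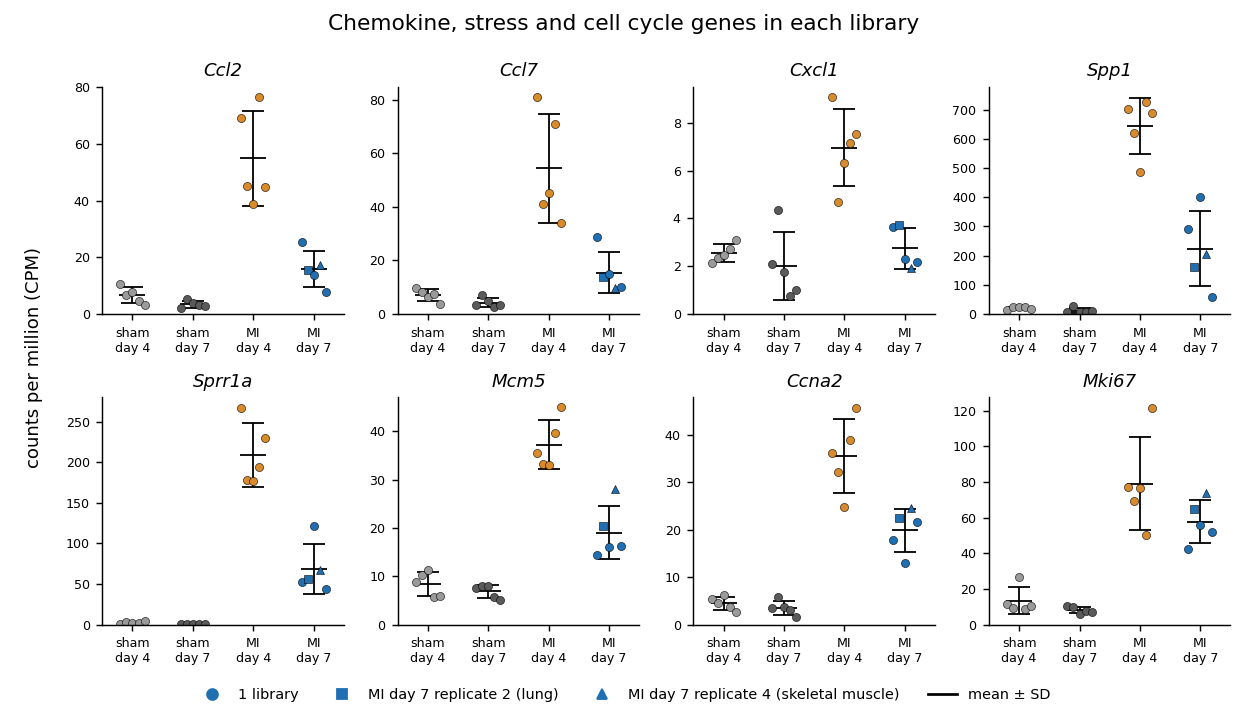
CPM (linear axes from 0) of 8 genes in each library of sham and MI hearts at days 4 and 7; points are libraries and bars are group means with SD, n = 5. Every MI library of day 7 lay below every MI library of day 4 for Ccl2, Ccl7, Cxcl1, Spp1, Sprr1a, Mcm5 and Ccna2, and Mki67 (79.1 ± 26.2 and 57.8 ± 11.9 CPM) did not pass the test.

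Some metabolic genes fell, each by less than 2-fold. Over all genes tested 2.43% fell, so that a single call in one of these lists describes a gene and not the list. Of 17 glycolysis genes 6 were lower and none higher (median log2 -0.38), among them Pgam1, phosphoglycerate mutase, from 54.3 ± 6.42 to 34.5 ± 4.78 CPM (log2 -0.65 ± 0.12, adjusted p = 0.00687), Pfkl, the liver form of phosphofructokinase, and the lactate exporter Slc16a3 (log2 -0.50 ± 0.11 and -0.81 ± 0.19). Slc16a3 lost its call without day 4 replicates 1 or 4 or day 7 replicates 2 or 4 (adjusted p up to 0.0676) and Pfkl without day 4 replicate 1 (adjusted p up to 0.0566). Only 1 was called without day 7 replicates 2 and 4, and the count was 1 without day 4 replicate 1, 3 without day 4 replicate 2, and 2 without day 4 replicate 4, day 7 replicate 2 or day 7 replicate 4. Of 26 fatty acid oxidation genes 3 fell: Slc27a1, a fatty acid transporter, Pdk4, a kinase that inhibits pyruvate dehydrogenase, and Crat, carnitine acetyltransferase (log2 -0.43 ± 0.10, -0.96 ± 0.24 and -0.49 ± 0.13). The calls ended without day 4 replicates 2 or 4 or day 7 replicates 2 or 4 for Slc27a1 and without day 4 replicates 1, 2, 3 or 4 or day 7 replicates 1, 2, 3 or 4 for both Pdk4 and Crat (adjusted p up to 0.0582, 0.0924 and 0.103). None of these 3 was called without day 7 replicates 2 and 4, and the count was 0 without day 4 replicate 2 or 4 or day 7 replicate 2 or 4, 1 without day 4 replicate 1 or 3 or day 7 replicate 1 or 3, and 5 without day 7 replicate 5. Of 26 respiratory chain and TCA cycle genes edgeR called 0 (3 at an unadjusted p under 0.05, 1 by DESeq2, 0 by limma, and 1 by edgeR without day 7 replicate 5). Of 18 unfolded protein response genes it called 0 (6 unadjusted, 3 by DESeq2, 1 by limma), with 4 lower without day 7 replicate 4 and 1 without day 4 replicate 5, day 7 replicate 1 or day 7 replicates 2 and 4 together. Of 19 cholesterol synthesis genes it called 0 (1 unadjusted, 0 by DESeq2 and limma). Among the 19 genes tested that break down branched-chain amino acids, Bcat2, the aminotransferase of the mitochondria, alone fell (log2 -0.38 ± 0.09, adjusted p = 0.0315, and up to 0.0818 without day 4 replicates 1, 2, 3 or 4 or day 7 replicates 1, 2 or 4). Of 19 immediate-early genes, the first to answer a stimulus, Ier2 and Ier3 fell (log2 -0.43 ± 0.09 and -0.68 ± 0.16, adjusted p = 0.0139 and 0.0274). Neither was called without day 7 replicates 2 and 4 (0.0854 and 0.119), and Ier3 also not without day 4 replicates 1, 2 or 4 or day 7 replicates 2 or 4. Hspa5, the endoplasmic reticulum chaperone, had log2 -0.29 ± 0.15 (adjusted p = 0.273). Hmox1, which degrades heme, read 432, 271, 314, 369 and 329 CPM at day 4 and 167, 76.3, 314, 70.3 and 56.4 CPM at day 7 (log2 -1.32 ± 0.44, adjusted p = 0.105), and was called without day 7 replicate 3.

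No contractile or calcium handling gene of heart muscle passed the test. Of 20 such genes edgeR called 0 (2 at an unadjusted p under 0.05, 1 by DESeq2 and 1 by limma), with a median log2 fold change of -0.04. Of 18 ion channels and connexins it called 0 (4 unadjusted, 1 by DESeq2, 3 by limma, and 1 by edgeR without day 4 replicate 5 or day 7 replicate 5), with a median of -0.18. Myh6, the adult myosin heavy chain, read 8456 ± 2202 and 7802 ± 1815 CPM (log2 -0.12 ± 0.22, adjusted p = 0.781), and Atp2a2, the calcium pump, 10148 ± 1561 and 7865 ± 1685 CPM (log2 -0.37 ± 0.18, adjusted p = 0.224). The metabolic genes Cpt1b and Ppargc1a had log2 -0.50 and -0.08 (adjusted p = 0.139 and 0.772). Of 17 cardiac stress and fetal genes 2 fell, against 2.43% of all genes tested. Sprr1a, a small proline-rich protein induced in stressed muscle, read 267, 178, 176, 194 and 230.5 CPM at day 4 and 52.2, 56.3, 121, 67.4 and 44.2 CPM at day 7, with no overlap (log2 -1.61 ± 0.24, adjusted p = 0.00276). Gdf15, a secreted stress signal, fell from 23.9 ± 6.60 to 12.5 ± 2.67 CPM (log2 -0.94 ± 0.20, adjusted p = 0.0172; 0.0525 without day 7 replicates 2 and 4 and 0.0523 without day 4 replicate 1). The natriuretic peptides Nppa and Nppb and the stretch-induced Ankrd1 had log2 0.33 ± 0.20, 0.19 ± 0.20 and 0.25 ± 0.13 (adjusted p = 0.331, 0.595 and 0.237). Day 4 replicate 2, with the lowest atrial sum, also had the lowest Nppa, and Nppa is an atrial gene as well as one of stressed muscle. The part of atrial tissue in its level was not tested.

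A few vessel wall and clock genes rose, where 3.45% of all genes tested did. Of 17 endothelial genes edgeR called 0 (2 at an unadjusted p under 0.05, 1 by DESeq2, 1 by limma, and 1 lower by edgeR without day 7 replicates 2 and 4). Of 12 pericyte and smooth muscle genes 3 rose: Rgs4, a regulator of G protein signals, from 17.9 ± 3.17 to 35.3 ± 2.63 CPM (log2 0.97 ± 0.12, adjusted p = 7.08e-04), Kcnj8, a potassium channel of pericytes, and Higd1b (log2 0.46 ± 0.10 and 0.80 ± 0.18), of which Rgs4 alone was called without day 4 replicate 1. The calls of Higd1b and Kcnj8 ended without day 4 replicates 1, 3 or 4 and without day 4 replicate 1 or day 7 replicate 2 (adjusted p up to 0.0540 and 0.0615). Of 16 clock genes 2 rose, Dbp and Nr1d2, both outputs of the clock. Dbp read 7.24, 7.05, 11.01, 15.7 and 9.28 CPM at day 4 and 20.8, 12.9, 25.000, 20.6 and 16.4 CPM at day 7 (log2 0.93 ± 0.23, adjusted p = 0.0308). It overlaps Sphk2 at 28.7 CPM, and its call ended without day 4 replicates 1, 2, 3 or 5 or day 7 replicates 1, 3 or 4. Nr1d2 read 51.5 ± 7.09 and 82.2 ± 11.1 CPM (log2 0.68 ± 0.12, adjusted p = 0.00717). The labels give no hour of tissue collection.

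Few genes passed the test in sham hearts over the same interval. Of 15537 genes tested in a fit of all 30 libraries, 19 (0.122%) were called in sham hearts, 8 higher (0.0515%) and 11 lower (0.0708%), with 1692 at an unadjusted p under 0.05. DESeq2 called 93 and limma 99. The 19 became 31 without sham day 4 replicate 5, 12 without sham day 4 replicate 3, 9 without sham day 7 replicate 5, 2 without sham day 4 replicate 2, 1 without sham day 7 replicate 3 and 0 without sham day 4 replicate 4 or sham day 7 replicate 1. Of the 19, 7 were also called in MI hearts. Some sham libraries held lung transcripts too: Sftpc read 0, 19.7, 44.04, 0 and 0 CPM in sham replicates 1 to 5 at day 4 and 8.70, 333, 9.79, 0.126 and 0.128 CPM at day 7. Without sham day 4 replicates 2 and 3 and sham day 7 replicates 1, 2 and 3 edgeR called 0 genes. The test of the difference itself, the MI change minus the sham change, called 158 genes (1.02%), 109 in the positive direction (0.702%) and 49 in the negative (0.315%). Among the genes called in MI hearts, 103 of the 510 that rose (20.2%) and 21 of the 359 that fell (5.85%) had a called difference. On simulated data this test called 15.6% of genes changed 1.5-fold and 60.3% of those changed 2-fold. The MI test called 45.9 and 82.9%. Changes in MI hearts were also smaller among the genes that fell (median log2 -0.51 against 0.76). A gene without a called difference may therefore still differ, and the 2 shares are not on equal terms. The median sham log2 fold change was 0.04 over the genes that rose in MI hearts and -0.17 over those that fell. Leaving out day 7 MI replicates 2 and 4 with the 5 sham libraries named above left 9 called differences. MI day 7 replicates 3 and 5, with lung sums of 51.5 and 50.7 CPM, were kept there. Leaving out 1 library gave 70 (sham day 4 replicate 3) to 294 (MI day 7 replicate 5), and moved the count by over 1.5 times also for MI day 4 replicates 1, 2 and 5 (76, 73 and 288), MI day 7 replicates 2 and 4 (98 and 95), sham day 4 replicate 1 (97) and sham day 7 replicates 1, 4 and 5 (99, 95 and 73).

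Matrix and fibroblast lists varied in how many of their genes changed by a different amount than in sham hearts. The proteoglycan list had 6 called differences of 11, the late scar list 4 of 16 and the Wnt antagonists 3 of 8, against 0.702% over all genes tested. The counts of called differences by list are a description too, as the lists were chosen with earlier results known. The matrix proteases had 5 of 20, resting fibroblast genes 3 of 14, matricellular genes 3 of 22, other collagens 2 of 12 and elastic fibre genes 1 of 16. The fibrillar collagens (11), collagen processing (21), TGF-beta, BMP and activin (19) and bone and cartilage (6) lists had none by edgeR. Their genes at an unadjusted p under 0.05 numbered 8, 11, 8 and 2, with 1, 3, 3 and 0 called by DESeq2 and 0, 0, 1 and 0 by limma. Fmod is in both the proteoglycan and the late scar list, and Sfrp2 in both the late scar and the Wnt antagonist list. Fmod read 14.3 ± 8.06 CPM in sham hearts at day 4 and 13.9 ± 2.31 CPM at day 7, a sham log2 fold change of -0.03, and the difference was 2.12 ± 0.45 (adjusted p = 0.0187). For Comp the sham means were 16.9 ± 7.28 and 14.97 ± 1.71 CPM and the difference 2.23 ± 0.34 (adjusted p = 7.07e-04). Fxyd6, Col8a2, Itgbl1, Itm2a and Fbln5 had the smallest adjusted p of the genes that rose relative to sham (2.43e-07, 3.55e-05, 5.23e-05, 5.23e-05 and 1.24e-04). The chemokines, the cell cycle genes and Sprr1a had no called difference, which does not show that their change was equal. Ccl2 read 10.6, 6.66, 7.65, 4.52 and 3.33 CPM in sham hearts at day 4 and 2.01, 5.16, 3.74, 3.27 and 2.93 CPM at day 7 (sham log2 -0.96, adjusted p = 0.364), and its difference was -0.83 ± 0.49 (adjusted p = 0.464). Sprr1a had a sham log2 fold change of -3.05 (adjusted p = 0.195) and a difference of 1.44 ± 0.97 (adjusted p = 0.547), and Mcm5 -0.28 and -0.69 ± 0.33 (adjusted p of the difference 0.332). Hmga1, a chromatin protein of dividing cells, and Uck2, a uridine kinase, fell in MI hearts (41.9 ± 4.87 to 23.7 ± 2.01 and 282 ± 35.8 to 163 ± 26.5 CPM) at sham log2 fold changes of 0.05 and 0.04, with differences of -0.88 ± 0.15 and -0.84 ± 0.16 (adjusted p = 0.00178 and 0.00413). Hmga1 has a near-identical copy, Hmga1b, and overlaps AI413582, so that its reads may be split.

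**Figure D5:**
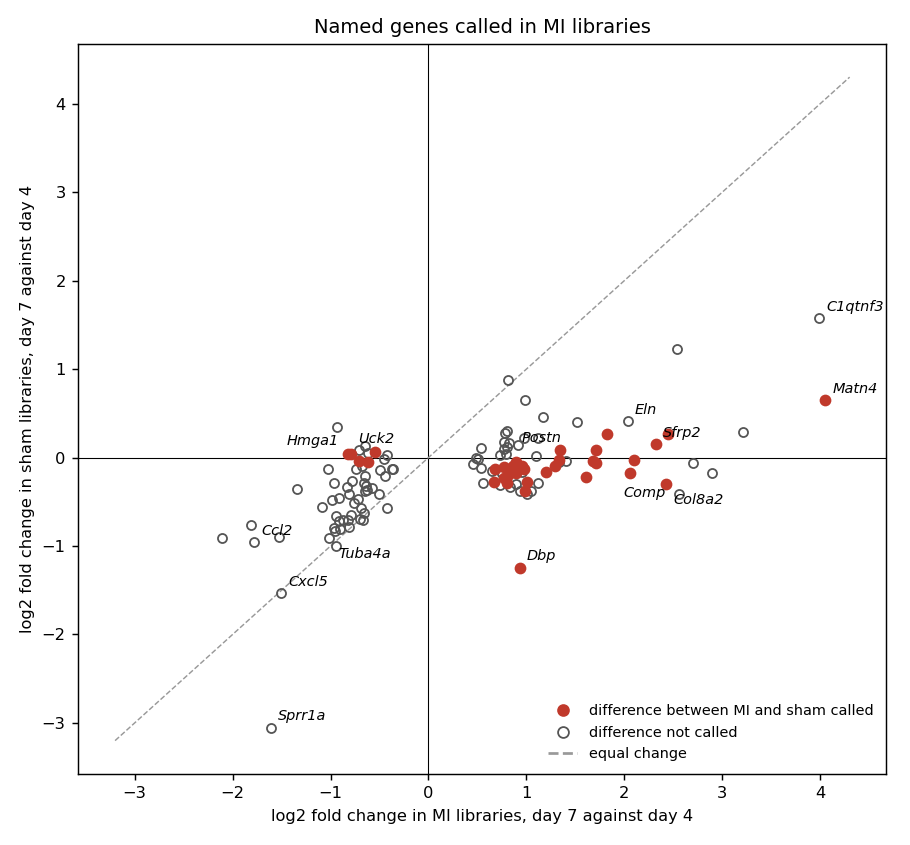
Log2 fold change of day 7 against day 4 in MI libraries (horizontal) and sham libraries (vertical) for the named genes called in MI libraries; filled red points have a called difference between MI and sham, open points do not, and the dashed line marks an equal change. Most of the red points lie at the right near a sham value of 0, such as Comp at 2.06 and -0.18, while Cxcl5 lies at -1.50 and -1.53, near the dashed line.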

How the data were processed

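Per the submitters' processing notes, the authors used bcl2fastq 2.20.0, featureCounts and the build GRCm38. Each deposited file holds the raw counts of 1 library by Ensembl gene. Sources used here give no aligner, no featureCounts version and no strand setting. Per the labels' protocols, RNA from hearts was made into directional libraries and read as pairs of 150 bases. A GRCm38 annotation gave symbols and positions (97.5% of 43629 genes, 99.9% of counts), and RefSeq GRCm38.p6 the promoters.

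Libraries were grouped by operation and day from their titles. The 10 MI libraries were fitted with edgeR 4.0.16 in R 4.3.3: filterByExpr (minimum count 10, total 15), factors by TMM, and a 2-sided robust quasi-likelihood F test, with Benjamini-Hochberg adjustment over all genes tested. The sham comparison and the difference between MI and sham came from 1 fit of all 30 libraries. CPM are counts over the library total, SD is over the 5 libraries of a group, and SE is of the log2 fold change. Library measures used exact permutation tests (scipy 1.17.1, Python 3.11.15). Figures used matplotlib 3.10.9.

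The comparison and the 49 gene lists (755 genes) were chosen with earlier results of these data known. The naming rule took 40 panel genes whatever their result, the 10 largest non-overlapping changes each way among called genes of at least 10 CPM, up to 3 called genes per list of at least 1 CPM, and the 5 smallest adjusted p each way for the difference from sham. Genes named beyond it, chosen after their values were seen, are Angptl7, Thbs3, Scx, Chrdl1, Lum, Dcn, Bgn, Prelp, Ecm2, Ltbp2, Col16a1, Plod2, P4ha1, Sparc, Bmp2, Bmp4, Adamts4, Cxcl10, H2-Ab1, Cd74, C1ra, C1s1, C5ar1, Mcm6, Ccna2, Plk1, Ube2c, Tubb4b, Tubb6, Cryab, Hspd1, Bysl and Nop56. Some genes are not reported here.

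Alternatives were median-ratio factors, DESeq2 1.42.0, limma 3.58.1 (voom with sample weights), other filters on low counts, a test against a fold of 1.5, the replicate number as a block, other libraries in the fit, and leaving out single libraries, day 7 MI replicates 2 and 4, or 5 sham libraries with lung transcripts. On simulated data of the 10 MI libraries (14655 genes), the fit called 45.9, 82.9 and 98.6% of genes changed 1.5-, 2- and 4-fold, and 6.67% of its calls had no change. For the difference between MI and sham (15301 genes) it called 15.6, 60.3 and 90.5%, and 4.59% of its calls had no change. No simulated library was made to hold transcripts of another tissue, so that these rates may not hold for the real libraries.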

Additional observations from a re-analysis of the deposited data

Results flagged for a closer look

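For 14 of the 308 groups of 5 libraries (each named gene at each day), 1 library stood further from the rest than Dixon's 95% limit of 0.710 of the range, which chance does in about 1 of 20 groups. The library that stood apart was above the others for Loxl1 (day 4 replicate 5, 279.98 CPM, next 209), P4ha1 (day 7 replicate 4, 121 CPM, next 107), Cilp (day 4 replicate 5, 140.3 CPM, next 94.8), Ccl7 (day 7 replicate 1, 28.6 CPM, next 15.02), Chil3 (day 4 replicate 4, 86.6 CPM, next 39.3), Chil3 (day 7 replicate 2, 227 CPM, next 37.3), Ms4a1 (day 7 replicate 4, 17.99 CPM, next 5.70), Uhrf1 (day 4 replicate 5, 29.2 CPM, next 20.4) and Plod2 (day 7 replicate 4, 111 CPM, next 85.5). The library that stood apart was below the others for Pfkl (day 7 replicate 1, 105 CPM, next 144), Nppa (day 4 replicate 2, 1286 CPM, next 2512), Ankrd1 (day 7 replicate 1, 3029 CPM, next 3611), Agpat1 (day 7 replicate 3, 60.1 CPM, next 76.5) and Gpr35 (day 4 replicate 2, 12.2 CPM, next 16.5). Day 7 replicate 2 held lung transcripts (2409 CPM in sum) and day 7 replicate 4 skeletal muscle (2527 CPM) and B and plasma cell transcripts (1662 CPM), and their part in these values was not tested. The atrial sum of day 4 replicate 2 was 269.6 CPM, the lowest of the 10.

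The change from day 4 to day 7 differed between MI and sham hearts, by edgeR's test of the difference itself, in 34 of the named genes. Among matrix and scar genes, the MI minus sham log2 difference was 3.39 for Matn4, 2.71 for Col8a2, 2.23 for Comp, 2.17 for 1500015O10Rik, 2.12 for Fmod, 1.76 for Fbln5, 1.82 for Thbs2, 1.71 for Ccn5, 1.26 for Aspn, 1.27 for Col8a1, 1.07 for Prelp, 1.06 for Lum, 0.96 for Ogn and 0.93 for Dcn. Among Wnt antagonists, proteases and a fibroblast factor it was 2.16 for Sfrp2, 1.38 for Sfrp1, 1.35 for Frzb, 1.35 for Mmp2, 1.04 for Mmp23, 0.94 for Timp3 and 0.87 for Tcf21. Among complement, pericyte and clock genes it was 0.9997 for Serping1, 0.995 for Cd55, 1.10 for Rgs4, 2.17 for Dbp and 0.80 for Nr1d2. It was 1.62 for Itm2a, 1.54 for Itgbl1 and 1.35 for Fxyd6. The difference was negative in Hmga1 (-0.88), Uck2 (-0.84), Cryab (-0.67), Agpat1 (-0.62) and Bysl (-0.57). The adjusted p ran from 2.43e-07 (Fxyd6) to 0.0474 (Mmp23). Matn4 passed the filter on low counts of the MI comparison through day 7, so that its difference is a description. Dbp had a sham log2 fold change of -1.25 (adjusted p = 0.0397), against 0.93 in MI hearts, and the labels give no hour of collection. The cause of these differences was not tested.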

How the results depend on the processing

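The counts over all genes, those of the 49 lists and the named genes were recomputed under the alternatives. For genes higher and lower at day 7 the counts were 855 and 659 by DESeq2, 952 and 862 by limma, 40 and 2 against a fold of 1.5, 973 and 978 with all 30 libraries in the fit, 698 and 933 with the 20 libraries of days 4 and 7, and 211 and 92 without day 7 replicates 2 and 4. All 869 calls were also made by DESeq2 and 846 by limma. Without 1 library they were 244 to 553 and 132 to 368. For sham hearts the count was 93 by DESeq2, 99 by limma, 12 without a filter, 10 with 20 libraries, 0 against a fold of 1.5 (83 genes at an unadjusted p under 0.05), 0 without sham day 4 replicates 2 and 3 and sham day 7 replicates 1, 2 and 3 (716 unadjusted), and 0 to 31 without 1 library. For the difference between MI and sham it was 419 by DESeq2, 277 by limma, 84 without a filter, 11 against a fold of 1.5, 89 with 20 libraries, 9 without those 5 sham libraries and MI day 7 replicates 2 and 4, and 70 to 294 without 1 library. The cause of these moves was not tested. Median-ratio factors and a filter at 1 CPM moved no count by over 1.5 times.

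With the replicate number as a block, 242 genes were higher and 110 lower, and the sham and difference counts were 13 and 108. Replicates with the same number deviated together with correlations of 0.33, 0.11, -0.16, -0.18 and -0.27, and 1 of 5 correlated best with its own number, so that the numbers were not used as pairs.

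The log2 fold change turned its sign in some genes that had not passed the test. Without day 7 replicates 2 and 4 it was 0.324 for Il1b, -1.36 for Chil3 and 0.0302 for Tuba1a. By limma it was -0.53 for Chil3, -0.75 for S100a8, -1.28 for S100a9, -0.108 for Gpnmb, -0.0265 for Trem2 and 0.00584 for Ppargc1a. With the replicate block it was -1.30 for Chil3, -0.227 for S100a9 and -0.0533 for Gpnmb. Over the omissions of 1 library it ran from -0.84 to 0.186 for Il1b, -1.65 to 0.774 for Chil3, -0.415 to 1.21 for S100a8, -1.05 to 0.775 for S100a9, -0.199 to 0.459 for Gpnmb, -0.255 to 0.0220 for Myh6, -0.139 to 0.0112 for Ppargc1a and -0.227 to 0.0679 for Tuba1a. The depth allowed a 0 to hide up to 0.341 CPM.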

Other observations

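Some genes of tubulins, of protein folding and of ribosome assembly fell as well, in lists put together after values of these data had been seen, so that their counts are a description. Of 17 tubulins 5 were lower and none higher at day 7 (edgeR, adjusted p), against 2.43% of all genes tested, and 3 had a positive log2 fold change. Tuba4a read 609.7, 677, 609, 525 and 524 CPM at day 4 and 253, 309, 311, 325 and 269 CPM at day 7, without overlap (log2 -1.01 ± 0.12, adjusted p = 4.58e-04), and it overlaps Stk16 at 10.6% of its level. Tuba8 read 141 ± 22.7 and 66.3 ± 10.4 CPM, Tubb6 137 ± 17.6 and 72.8 ± 12.4 CPM and Tubb4b 269.9 ± 6.45 and 156 ± 20.1 CPM (log2 -1.09 ± 0.14, -0.91 ± 0.12 and -0.79 ± 0.10). Tubulins are near-identical copies of each other, and reads may be split between them. The abundant Tuba1a read 257 ± 37.9 and 245 ± 73.1 CPM (adjusted p = 0.866). In sham hearts 2 tubulins were lower. The count in MI hearts was 8 without day 7 replicate 3.

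Of 20 chaperonins and heat shock proteins 6 were lower, among them Cryab, a small heat shock protein abundant in heart muscle (1838 ± 242 to 1128 ± 104 CPM, log2 -0.71 ± 0.13, adjusted p = 0.00898), and Hspd1, the mitochondrial chaperonin (209 ± 30.7 to 134 ± 24.03 CPM, log2 -0.65 ± 0.14, adjusted p = 0.0187). Of 24 nucleolar ribosome assembly genes 9 were lower, such as Bysl (52.99 ± 1.78 to 34.7 ± 3.57 CPM, log2 -0.61 ± 0.09, adjusted p = 0.00228) and Nop56 (29.6 ± 3.37 to 21.7 ± 1.29 CPM, log2 -0.45 ± 0.10, adjusted p = 0.0193; up to 0.0580 without day 4 replicate 1 or day 7 replicate 2). Without day 7 replicates 2 and 4 the lower calls of the 3 lists were 4, 2 and 2. The chaperonin count was 3 without day 4 replicate 1 or 2 or day 7 replicate 2. The ribosome assembly count was 4 without day 4 replicate 1 or day 7 replicate 2, and 5 without day 4 replicate 2 or 4 or day 7 replicate 1. Agpat1, an enzyme of phospholipid synthesis, Nxpe5 and Gpr35, a receptor of leukocytes and gut, fell by 0.55, 0.95 and 0.94 on the log2 scale (adjusted p = 0.00949, 0.0153 and 0.00820), with adjusted p of 0.0524, 0.0854 and 0.0602 without day 7 replicates 2 and 4.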
